A study of Saccharomyces cerevisiae with 5 samples.

Results

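The vacuolar proton pump (V-ATPase) of budding yeast was followed through 10 of its subunit genes: VMA1, VMA2, VMA4, VMA5, VMA6, VMA8, VMA10, VMA13, VPH1 and STV1. They were listed by name as subunits of the enzyme, though with earlier results of these data known. The list leaves out 4 other measured subunits, which are given further below. All 10 had values, among 4824 genes with values in all. They were read by 11 probe sets, 2 for VMA1 and 1 for each other gene.

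The V-ATPase is a rotary machine that spends ATP to move protons into the vacuole and other acidic compartments. Its V1 sector, on the cytosolic side, holds the ATP-binding subunits, a central stalk and peripheral stalks. Its Vo sector, in the membrane, carries the protons. Acidity made by the pump drives many vacuolar transporters, and in yeast the vacuole is also the main store of phosphate, as polyphosphate. The pump is well known for being regulated by reversible separation of V1 from Vo, which RNA levels do not show.

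RNA was measured in 5 cultures of strain W303 with the genotype PHO4-MYC::TRP1, a MYC-tagged form of the phosphate-responsive transcription factor Pho4 marked with TRP1. Log-phase cells of every group first spent 3 h in PNB medium lacking phosphate. They were then held for 80 min at 0, 0.01, 0.1, 1 or 10 mM phosphate. The group at 0 mM stayed without phosphate throughout, so no sample shows cells before starvation, and no strain with untagged PHO4 was among those analysed. Each dose was read on 1 Affymetrix array. There are therefore no replicates at any dose, and the error used below is the scatter of the 5 arrays around a line in dose order.

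The median signal over all probe sets lay between 17.0 and 25.5 on the 5 arrays, against a background level of 11.4. PHO5, a secreted acid phosphatase gene switched on by Pho4, had a signal of 1418 at 0 mM and 24.4 at 10 mM. RNA integrity can be read from how far the 3' end of a transcript outshines its 5' end, and for ACT1 this ratio ran from 1.11 at 0.1 mM to 3.00 at 0.01 mM. For TBP it ran from 1.51 at 10 mM to 4.52 at 0.01 mM. Poly-A spike-in controls dropped 10.4-fold in signal between the end doses, from the lower to the higher. The median gene differed by -0.26 between 10 and 0 mM (log2 signal) in the deposited values, by 0.18 with arrays brought to 1 median and by 0.09 after quantile normalization.

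Signals of the pump's subunit genes differed little between the doses. All 10 were above background on all 5 arrays, with signals no lower than 43.2. For 9 of the 10 the highest of the 5 arrays was less than 2-fold above the lowest, the exception being VMA13. VMA1 is among the 9 as the average of its 2 probe sets, and each of these alone had a range above 2-fold. Over all genes 50% had a range of at least 2-fold. The median range of the subunit genes was 0.57 (log2), against 1.00 over all genes. Bright genes did not have smaller ranges: of the 1419 genes with a geometric mean signal of at least 100, 49.8% reached 2-fold, with a median range of 1.00, and 8 of the subunit genes are among them.

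No subunit gene fell or rose along the doses: 0 of 10 passed in either direction (limma slope on dose order, Benjamini-Hochberg adjustment over all genes, threshold 0.05). Over all genes 8.13% fell and 1.16% rose, so a count of 0 of 10 is close to the background share. With arrays at 1 median, 0 genes of all 4807 passed on dose order, and after quantile normalization 2 fell and 2 rose, so adjusted calls on dose order hold for the deposited scaling. Adjusted p-values of the 10 genes lay between 0.178 and 0.956 in limma. At an unadjusted p under 0.05 the count was also 0 of 10, where 32.1% of all genes lay. When the arrays of 0 and 0.01 mM were set against the other 3, again 0 of 10 passed in limma after adjustment, against 22.0% lower and 11.4% higher over all genes. Unadjusted it was 0 of 10, against 44.6%. After quantile normalization VMA10 passed as lower at the 3 higher doses, by 0.62 on the log2 scale (limma adjusted p = 0.0362). That division of the doses was chosen with results of these data known. Its split over all genes depends on the scaling, with 16.6% lower and 23.6% higher at 1 array median and 18.8% and 20.9% after quantile normalization.

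What 5 arrays can exclude is limited. All 10 intervals of the slope (95%, limma) held 0, and they ran from -0.48 to 0.25 (log2 per dose step). In the deposited values the interval of each of the 10 genes excludes a 4-fold change over the 4 steps, which is 0.5 per step. Only for 1, VMA6, does it exclude a 2-fold change, which is 0.25 per step. For VMA1 the interval is that of 2 probe sets averaged. Probe set 6679_at alone had a slope of -0.40 ± 0.11 (SE, 5 arrays), for which a 4-fold change is not excluded. The intervals bound a straight trend in dose order and not a change at a single dose or step. The intervals do not cover the choice of scaling: at 1 array median the slope of VMA6 was 0.11 in place of -0.01.

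**Figure D1:**
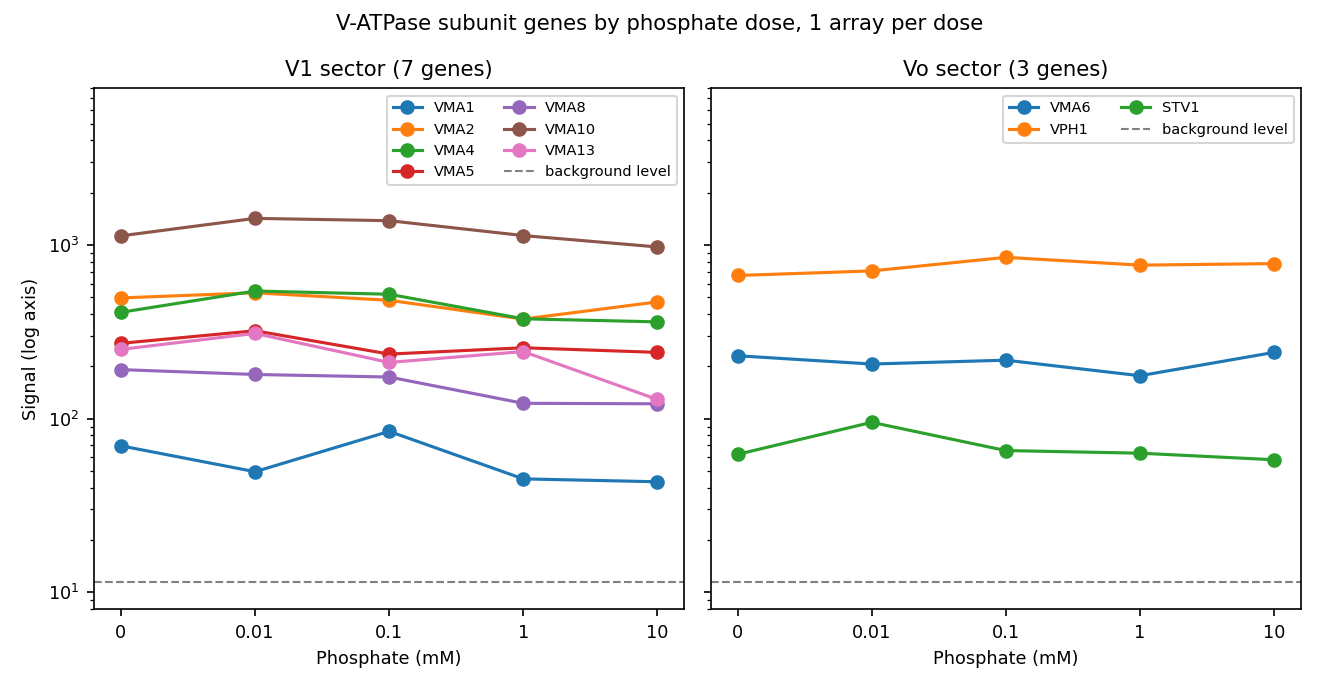
Signal (log axis) of each V-ATPase subunit gene at the 5 phosphate doses, 1 array per dose, with the V1 genes on the left and the Vo genes on the right. The dashed line is the background level of 11.4. Every gene lies above it at every dose. With the 2 probe sets of VMA1 averaged, VMA13 is the gene whose highest and lowest signals are more than 2-fold apart.

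From 0 to 10 mM, 0 of the 10 genes passed a 2-fold difference downward and 0 upward, against 21.2% and 7.52% of all genes. VMA1 was counted as the average of its 2 probe sets, and 6679_at alone was 2.86-fold lower at 10 mM. At 1 array median the shares over all genes were 11.7% and 16.1%, and after quantile normalization 13.8% and 14.3%. Between neighbouring doses the count at least 2-fold apart in either direction was 0 of 10 at each step. Over all genes that share was 9.00% from 0 to 0.01 mM, 25.0% from 0.01 to 0.1 mM, 2.51% from 0.1 to 1 mM and 1.31% from 1 to 10 mM. The VMA1 probe set 5922_s_at alone did differ by more than 2-fold between neighbouring doses, with 16.1, 56.2 and 26.9 at 0.01, 0.1 and 1 mM. The step from 0.01 to 0.1 mM, which was the largest step for 50.6% of all genes, was the largest for 2 of the subunit genes, VMA5 and VPH1. For 4 of them, VMA1, VMA2, VMA4 and VMA8, it was the step from 0.1 to 1 mM.

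**Figure D2:**
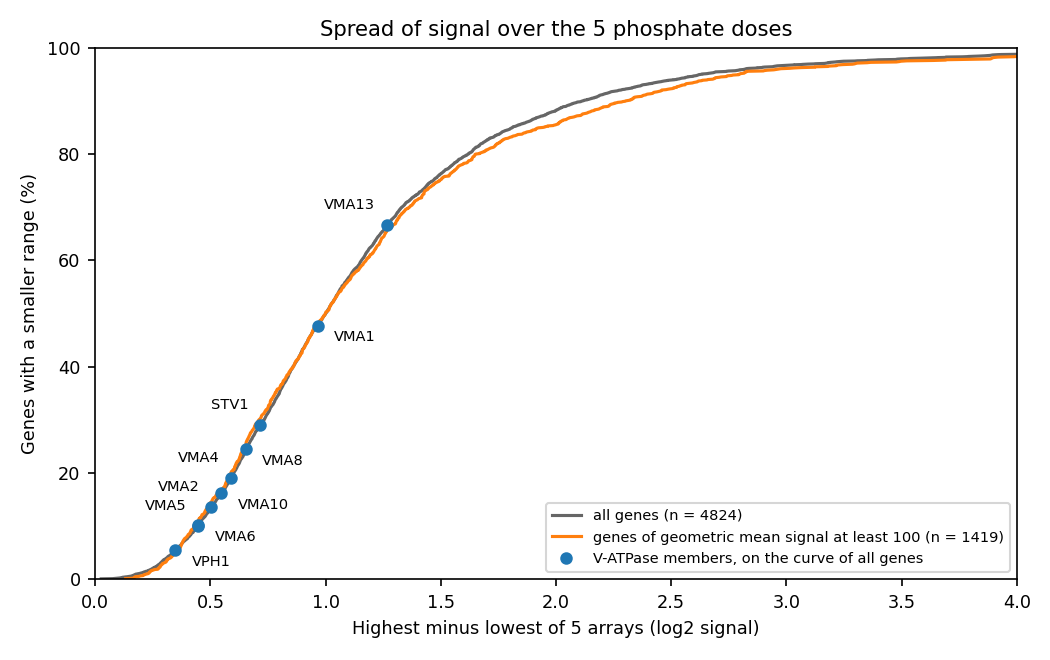
Cumulative share of genes (%) against the range of a gene, the highest minus the lowest of 5 arrays in log2 signal, for all 4824 genes and for the 1419 genes of geometric mean signal at least 100. Points mark the V-ATPase subunit genes on the curve of all genes: 9 of 10 lie left of the median of 1.00, from VPH1 at 0.35 to VMA1 at 0.96, and VMA13 lies at 1.26. The point of VMA1 is for the average of its 2 probe sets.

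The ATP-binding ring of V1 is built from subunits A and B. VMA2 (YBR127C) encodes subunit B, which forms the non-catalytic ATP sites. Its signals were 496, 531, 480.2, 374 and 470.1 from 0 to 10 mM. The lowest was at 1 mM, and the array of 10 mM was again near that of 0.1 mM. The slope was -0.07 ± 0.09 (log2 per dose step, SE, 5 arrays; limma adjusted p = 0.635), and it turned to 0.06 with arrays at 1 median.

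VMA1 (YDL185W) encodes subunit A, the catalytic subunit, whose precursor also carries the self-splicing intein PI-SceI. It is the gene with 2 probe sets, and these did not run in parallel. Probe set 6679_at had signals of 131, 151, 127, 75.0 and 45.7, which is lowest at the 2 highest doses, with a 2.86-fold difference between the ends. Probe set 5922_s_at had 37.2, 16.1, 56.2, 26.9 and 41.0, with no such order and its lowest signal at 0.01 mM. The slopes were -0.40 ± 0.11 for the first and 0.10 ± 0.17 for the second (SE, 5 arrays), with limma adjusted p = 0.0585 and 0.712 over all probe sets. Averaged on the log2 scale they gave signals of 69.7, 49.4, 84.4, 44.9 and 43.2 and a slope of -0.15 ± 0.11 (limma adjusted p = 0.390). Each set alone had a range of at least 2-fold, from 151 to 45.7 for 6679_at and from 56.2 to 16.1 for 5922_s_at. With 6679_at in place of the average, 2 of 10 genes had such a range. The ending _s_at marks a probe set whose probes can match more than a single transcript, and which part of VMA1 each set reads was not determined.

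Subunits E and G pair to form the peripheral stalks that hold the ring still while the rotor turns. VMA4 (YOR332W), for subunit E, had signals of 409, 543, 520.4, 376 and 361. VMA10 (YHR039C-A), for subunit G, had 1129, 1424, 1381, 1133 and 974. Both were highest at 0.01 and 0.1 mM and lowest at 10 mM. Their slopes were -0.09 ± 0.10 and -0.08 ± 0.09 (SE, 5 arrays; limma adjusted p = 0.551 and 0.596), and each was positive with arrays at 1 median, 0.03 and 0.05. Once each gene's own mean was taken off, their profiles differed by a root mean square of 0.07 (log2) over the 5 arrays. That was the smallest difference among the 45 pairs of the 10 genes, whose median was 0.28. After quantile normalization the same pair differed by 0.29 and stood at place 22 of 45. The pair was picked out after its values were seen, and the 5 points share their arrays.

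VMA5 (YKL080W) encodes subunit C, which bridges V1 and Vo and leaves when they come apart. Its signals were 271, 321, 235, 256 and 241, highest at 0.01 mM and lowest at 0.1 mM. The slope was -0.07 ± 0.09 (SE, 5 arrays; limma adjusted p = 0.620), and it was 0.05 with arrays at 1 median and 0.0019 after quantile normalization.

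VMA13 (YPR036W) encodes subunit H, which is needed for activity of the assembled pump and restrains ATP use by free V1. It had the widest range of the 10 genes, with signals of 250.4, 309, 211, 243 and 129. The array of 10 mM alone was low, 1.94-fold below that of 0 mM and 2.40-fold below that of 0.01 mM. The slope was -0.23 ± 0.11 (SE, 5 arrays; limma adjusted p = 0.191). Without the array of 10 mM it was -0.07.

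VMA8 (YEL051W) encodes subunit D, part of the central stalk that turns inside the ring. Its signals were 191, 179, 174, 122 and 122, and the arrays of 1 and 10 mM lay below the other 3. The signal at 10 mM was 1.57-fold below that at 0 mM. The slope, -0.19 ± 0.09 (SE, 5 arrays), gave the smallest p-value of the 10 genes and did not pass (unadjusted p = 0.0626, limma adjusted p = 0.178). VMA1, VMA8 and VMA13 were the genes whose slopes were negative under all 3 scalings: as deposited, at 1 median and after quantile normalization.

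In the Vo sector VMA6 (YLR447C) encodes subunit d, which couples the proton-carrying ring to the central stalk. Its signals were 230.1, 206, 217, 177 and 241, with the ends of the doses the highest of the 5. The slope was -0.01 ± 0.09 (SE, 5 arrays; limma adjusted p = 0.956), and it was 0.11 with arrays at 1 median.

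Subunit a, through which protons pass, is the only one with 2 alternative genes. VPH1 (YOR270C) encodes the form found at the vacuole, and STV1 (YMR054W) the form found in the Golgi and endosomes. VPH1 had the smallest range of the 10 genes, with signals of 667, 709, 849, 766 and 781. It was lowest at 0 mM and highest at 0.1 mM, a 1.27-fold difference. STV1 had signals of 62.2, 95.1, 65.4, 63.2 and 57.9. A single array stood apart for it, that of 0.01 mM, and the other 4 were within 57.9 to 65.4. The slopes were 0.06 ± 0.08 for VPH1 and -0.08 ± 0.10 for STV1 (SE, 5 arrays; limma adjusted p = 0.669 and 0.604), and both changed sign after quantile normalization, to -0.03 and 0.03.

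Whether the forms at the vacuole and at the Golgi respond differently to phosphate was asked of their difference on each array. The log2 signal of VPH1 minus that of STV1 was 3.42, 2.90, 3.70, 3.60 and 3.75 from 0 to 10 mM. It was lowest at 0.01 mM, where STV1 was high. The slope of this difference was 0.14 per dose step (2-sided exact permutation test over the 120 orders of 5 arrays, p = 0.283, the smallest possible being 0.0167). It changed sign to -0.06 after quantile normalization (p = 0.733, the same exact test), so no difference between them was shown.

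At 0.01 mM, 7 of the 10 genes were above their signal at 0 mM, with a median difference of 0.17 (log2). Over all genes 1374 of 4824 were above it on that array, and the median difference was -0.24. That array stood highest in its 3' to 5' ratios too, 3.00 for ACT1 and 4.52 for TBP, and the part of RNA integrity in this pattern was not tested. From 0.1 to 1 mM, 8 of the 10 were lower, by a median of -0.29, and the median gene by -0.20.

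**Figure D3:**
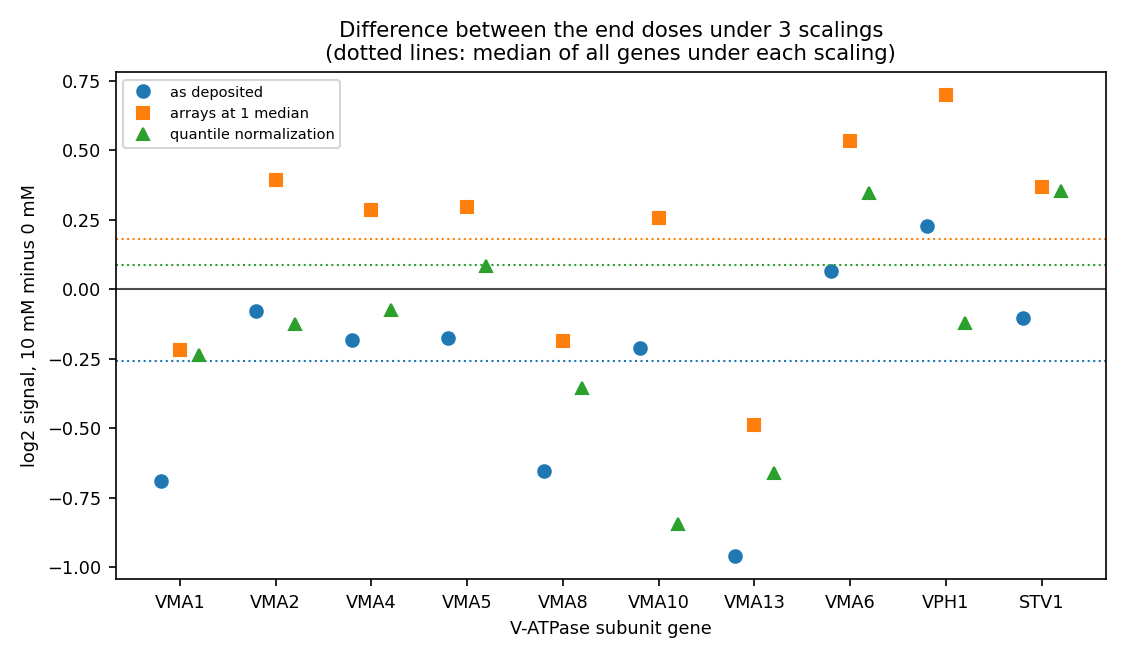
Difference in log2 signal, 10 mM minus 0 mM, of each V-ATPase subunit gene as deposited (circles), at 1 array median (squares) and after quantile normalization (triangles). Dotted lines give the median of all genes under each scaling. VMA1, VMA8 and VMA13 lie below 0 under all 3, VMA6 lies above 0 under all 3, and the other 6 change side.

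Between the ends of the doses the median difference of the 10 genes was -0.18 (log2 signal, 10 mM minus 0 mM), beside -0.26 for all genes. With arrays at 1 median it was 0.29 beside 0.18, and after quantile normalization -0.12 beside 0.09, so the sign relative to all genes also depends on the scaling. All 7 V1 genes were lower at 10 mM than at 0 mM as deposited, as were 3000 of all 4824 genes, with 1800 higher. The median of the V1 genes was -0.21, which turned to 0.26 at 1 array median. Of the 3 Vo genes 2 were higher, VMA6 and VPH1, the latter lower after quantile normalization.

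Other subunits of the pump had values for 4 of 5 genes, and VMA9, for the small subunit e, was not measured here. None of the 4 passed on dose order. VMA3, VMA11 and VMA16 encode the proteolipids c, c' and c'' that make up the rotating proton ring. VMA3 had signals of 778, 997, 1231, 935 and 1017, and VMA11 had 333, 363, 492, 410 and 421. Both were lowest at 0 mM and highest at 0.1 mM, as VPH1 was. After quantile normalization VMA3 was lower at 10 mM than at 0 mM, by a log2 difference of -0.093. VMA16 had 533, 282, 913, 644 and 779, lowest at 0.01 mM. VMA16 was 0.99 higher (log2) at the 3 higher doses than at 0 and 0.01 mM, which passed in limma (adjusted p = 0.0454), and it was the only one of the 14 measured subunit genes to do so in the deposited values. The difference leaned on the array of 0.01 mM: it was 0.53 without that array and 1.45 without the array of 0 mM. The call also depended on the scaling. After quantile normalization the difference was 0.87 (limma adjusted p = 0.0879), and at 1 array median it was 1.31 (limma adjusted p = 0.00634). On dose order the slope of VMA16 was 0.23 ± 0.15 (SE, 5 arrays; limma adjusted p = 0.323). VMA7, for subunit F of the central stalk, had 316, 215, 375, 284 and 278, also lowest at 0.01 mM. At 1 array median VMA11 and VMA7 passed as higher at the 3 higher doses too, by 0.66 and 0.57 (limma adjusted p = 0.0340 and 0.0488). At that scaling 23.6% of all genes passed as higher. Neither VMA11 nor VMA7 passed after quantile normalization (limma adjusted p = 0.0912 and 0.202).

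**Figure D4:**
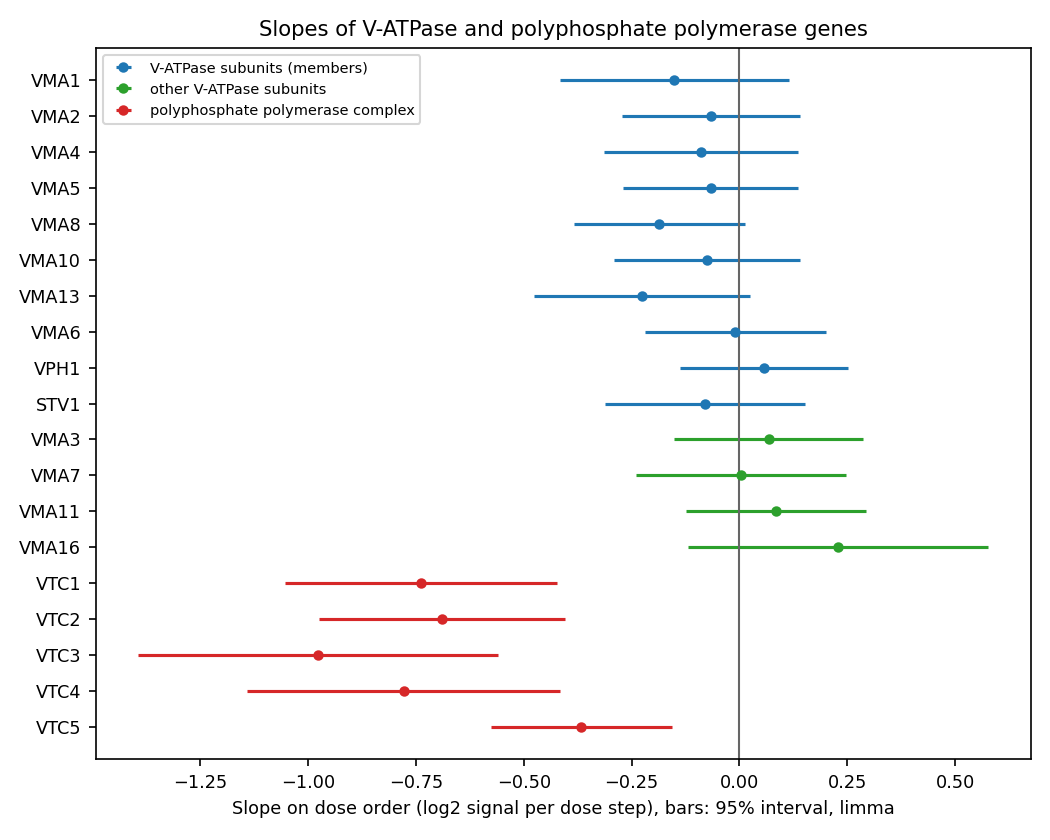
Slope of log2 signal per dose step, with its 95% interval from limma, for the 10 V-ATPase subunit genes, 4 other subunits of the pump and the 5 genes of the polyphosphate polymerase complex. Every V-ATPase interval includes 0, and the 5 intervals of the polyphosphate polymerase genes lie below 0.

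Genes that build or take apart the pump had values for 9 of 10, RAV1 not passing the filter on dim probe sets. None passed on dose order, and 2 were lower at the 3 higher doses than at 0 and 0.01 mM, RAV2 and OXR1, a share like the 22.0% of all genes. RAV2, of the RAVE complex that reassembles V1 with Vo, had signals of 62.4, 47.8, 29.6, 23.9 and 33.4 (log2 difference -0.93, limma adjusted p = 0.0231, or 0.0849 without the array of 0 mM). OXR1, whose product promotes disassembly of the pump, had 36.2, 39.9, 14.5 and 18.1 from 0 to 1 mM and was below background at 10 mM, at least 3.17-fold lower than at 0 mM (log2 difference -1.40, limma adjusted p = 0.00602). The RAVE subunit SKP1, which also serves ubiquitin ligases, had 444 and 344 at the ends, and RTC5, another disassembly gene, had 31.4 and 22.5. The assembly factors in the endoplasmic reticulum lay higher at 10 mM, with folds over 0 mM of 1.17 for VPH2, 1.30 for VMA21, 1.63 for VMA22, 1.22 for PKR1 and 1.26 for VOA1, and none of these 5 passed either comparison as deposited. At 1 array median, VMA21, VMA22, PKR1 and VOA1 passed as higher at the 3 higher doses (limma adjusted p = 0.0308, 0.0142, 0.0120 and 0.0258). At that scaling 23.6% of all genes passed as higher. After quantile normalization, where 20.9% of all genes did, VMA21, VMA22 and PKR1 passed (limma adjusted p = 0.0371, 0.0143 and 0.0337). VOA1 did not (limma adjusted p = 0.0600). The difference of VMA22 leaned on the array of 0.01 mM: as deposited it was 0.93 (log2), 0.41 without that array and 1.45 without the array of 0 mM.

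The polyphosphate polymerase complex sits in the same membrane and uses the pump's proton gradient as it moves polyphosphate into the vacuole. Its 5 measured genes fell along the doses in the deposited values, 5 of 5, against 8.13% of all genes. VTC1 and VTC3 had slopes of -0.74 ± 0.14 and -0.98 ± 0.18 (SE, 5 arrays, limma adjusted p = 0.0395 for each). VTC5 passed as the average of 2 probe sets with slopes of -0.61 and -0.12, and the second alone did not pass (limma adjusted p = 0.399 over all probe sets). For VTC1 the signals were 1521, 1653, 423, 321 and 266, high on the 2 lowest doses and low on the other 3. With arrays at 1 median 0 of the 5 passed on dose order (limma adjusted p = 0.0631 for VTC1). All 5 passed as lower at the 3 higher doses than at 0 and 0.01 mM under each of the 3 scalings. For VTC1 the limma adjusted p was 0.000989 as deposited and 0.00204 at 1 median. Over all genes 22.0%, 16.6% and 18.8% were lower as deposited, at 1 median and after quantile normalization. For VTC5 the log2 difference was -1.01 as deposited and -0.69 without the array of 0 mM. VTC1 to VTC4 are known targets of Pho4. Of the 10 subunit genes of the pump, 0 passed in that comparison as deposited, and VMA10 passed as lower after quantile normalization. Among the other subunits VMA16 passed as deposited, in the opposite direction. A difference between the pump genes and the polyphosphate polymerase genes was not tested.

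The rotary enzyme most like the pump is the mitochondrial ATP synthase, measured in 19 of 20 listed genes. Of these 2 fell, STF1 and STF2, and 0 rose, near the shares of 8.13% and 1.16% over all genes. In the comparison of the 2 lowest doses with the rest 6 of the 19 were lower and 0 higher, against 22.0% and 11.4%. STF1 and STF2 encode proteins that act with the inhibitor of the enzyme, and their signals at 0 mM were 8.37 and 6.57 times those at 10 mM (limma adjusted p = 0.0395 for each, and 0.0630 and 0.0631 at 1 array median). INH1, for the inhibitor itself, was 2.38-fold lower and did not pass on dose order (limma adjusted p = 0.0804), but was lower at the 3 higher doses (limma adjusted p = 0.00333). ATP15, for the epsilon subunit, was 1.59-fold lower at 10 mM and passed only in the second comparison (limma adjusted p = 0.0485, or 0.262 at 1 array median). The median difference of the list was -0.34 and its median range 0.64 (log2), near the 0.57 of the V-ATPase genes.

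At the plasma membrane protons are pumped by PMA1 and its close copy PMA2. PMA1 had signals of 380.01, 343, 521, 248 and 209.9, and PMA2 had 82.8, 18.1, 31.5, 15.1 and 14.2. Neither passed on dose order (limma adjusted p = 0.249 and 0.0758). Whether the probe set of either gene also reads the other was not tested.

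The genes with profiles nearest to that of VPH1 were TFB5, of the general transcription factor TFIIH, THI22, and TIM23, of the mitochondrial import channel. Their root mean square differences from it were 0.038, 0.039 and 0.050 (log2, 5 arrays, each gene's mean taken off). Nearest to STV1 were ULI1, PRI1, for a DNA primase subunit, and YIP4, at 0.069, 0.074 and 0.085. ULI1 was at or below background on 3 of the 5 arrays, while PRI1 and YIP4 had their highest signal at 0.01 mM, 50.9 and 324, as STV1 did.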

How the data were processed

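The authors deposited linear intensity values, 1 signal for each probe set on each array. MAS5 made them, as named in the submitters' processing notes, and its version and scaling target were not given in the sources used here. Per the labels' protocols, biotinylated cRNA was prepared from 6 ug cDNA. All 9335 probe sets of the 5 arrays were read, and no 2 arrays were identical. Probe sets were named through the platform annotation, updated by gene identifier to RefSeq R64: 6504 had 1 gene, all matched, 328 had several and 2503 were not listed. No build is stated for the arrays, so no coordinates are given, and no sequences were used here.

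Values below the 40th percentile of all values (11.4) were set to it, log2 was taken, and probe sets of 1 gene at or above it on at least 2 arrays were kept, 5083 in all. Probe sets of a gene were averaged. Slopes on dose order were fitted over all 4824 genes with limma 3.58.1 in R 4.3.3 (7.64 degrees of freedom after moderation). The fit was tested on simulated data. The labels do not say if cultures were parallel, and the number of arrays limits the precision.

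Named were all 10 members, listed genes of the pump's other subunits, assembly, regulation and plasma membrane counterparts, in each further list up to 4 genes that differed most between 10 and 0 mM, and the 3 genes nearest in profile to VPH1 and to STV1. VMA4 with VMA10 as a pair was singled out after its values were seen. Members, lists and settings were chosen with earlier results of these data known.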

Additional observations from a re-analysis of the deposited data

How the results depend on the processing

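The count of 0 subunit genes lower and 0 higher on dose order was the same in all 16 other settings run: arrays at 1 median, quantile normalization, background at the 20th or 60th percentile or as a pseudocount, no filter, the brightest probe set, log10 dose, a variance trend, 2 divisions of the doses, and each of the 5 arrays left out. In 6 of the 16, though, 0 genes of the whole table passed, and in 8 fewer than 10 did, so there the count says nothing of the pump. At an unadjusted p under 0.05 the count was 0 or 1 of 10 in each of the 16, against 7.73% to 44.6% of all genes. With 0 mM set to 0.001 mM, log10 dose has equal steps and so repeats dose order. No paired analysis was possible because each dose had 1 array. The median difference between 10 and 0 mM, -0.18, was 0.29 with arrays at 1 median and 3.20 with arrays at equal poly-A spike-in signal, where the median of all genes was 2.58; both settings shift whole arrays. The slope of VPH1 minus STV1 was -0.061 after quantile normalization, and 0.073 to 0.25 with 1 array left out. With arrays at 1 median the slopes of VMA2, VMA4, VMA5, VMA10, VMA6 and STV1 turned to 0.056, 0.032, 0.054, 0.046, 0.11 and 0.042. After quantile normalization those of VMA5, VMA6, VPH1 and STV1 turned to 0.0019, 0.068, -0.028 and 0.033. Why single genes turned under quantile normalization was not tested. The slope of VMA6 lay between -0.11 and 0.037 with 1 array left out. With the brightest probe set of VMA1, 2 genes in place of 1 had a range of at least 2-fold; with arrays at 1 median, quantile normalization or a pseudocount it was VMA13 alone. When 0 and 0.01 mM were set against the higher doses, the count of 0 lower and 0 higher was 1 lower after quantile normalization (VMA10) and 0 in the other 7 repeats. The repeats of the range and of this comparison were chosen after seeing the data.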

Other observations

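Transporters that run on the vacuolar proton gradient were measured in 16 of 17 listed genes, of which 1 fell on dose order and 0 rose (limma, Benjamini-Hochberg adjustment), against 8.13% and 1.16% of all genes. With arrays at 1 median 0 genes of any kind passed on dose order. The gene that fell was AVT7, of the vacuolar amino acid transporter family, with signals of 238, 179, 128, 124 and 70.4 from 0 to 10 mM. RTC2, also known as YPQ3 and coding for a vacuolar transporter of basic amino acids, had 116, 62.6, 15.7, 13.0 and 19.9 and did not pass on dose order (limma adjusted p = 0.0501), but was lower at the 3 higher doses than at 0 and 0.01 mM (limma adjusted p = 0.00196). AVT6, an exporter of acidic amino acids from the vacuole, had 38.6 and 13.8 at the ends. ZRC1, which loads zinc into the vacuole, ran the other way with 153, 99.0, 330.3, 299 and 372, and was higher at the 3 higher doses (limma adjusted p = 0.00573). In that comparison 4 of the 16 were lower and 2 higher, against 22.0% and 11.4% of all genes.

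Genes of vacuole fusion were measured in 10 of 14, and none passed on dose order. VTI1, a SNARE of several routes to the vacuole, had signals of 137, 78.8, 24.0, 32.8 and 27.1, and NYV1, the vacuolar SNARE, had 67.1 and 27.1 at the ends. VAM6, a HOPS subunit, had 11.8 and 20.9, the first of these close to the background level of 11.4. CCZ1, for part of the activator of the fusion GTPase Ypt7, had 20.5 and 14.6. In the comparison of 0 and 0.01 mM with higher doses 3 of the 10 were lower and 1 was higher, near the 22.0% and 11.4% of all genes. Phosphatidylinositol 3,5-bisphosphate is a vacuolar lipid known to favour V1 and Vo staying together. All 5 genes listed for it had values, and 1 fell, against 8.13% of all genes: ATG18, which was at least 3.94-fold lower at 10 mM (limma adjusted p = 0.0395). The lipid kinase gene FAB1 had signals of 45.2, 41.7, 22.9, 23.4 and 21.2, and with ATG18 and FIG4 it was lower at the 3 higher doses, 3 of 5 beside 22.0% of all genes (limma adjusted p = 0.00683 for ATG18 and 0.0358 for FIG4). With arrays at 1 median the adjusted p of FAB1 was 0.0766 and that of FIG4 0.196. VAC7 had 26.7 and 20.2 at the ends.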
